A study of Mus musculus with 6 samples.

Results

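The 10 claudins described here were Cldn1, Cldn2, Cldn3, Cldn4, Cldn7, Cldn8, Cldn12, Cldn14, Cldn15 and Cldn23. They were taken by gene symbol from a table of 27202 genes and were described gene by gene, with no score over the family. All 10 passed the filter on low values (a mean of at least 10 normalized counts over the 6 libraries), as did 16246 genes of the table. Claudins are membrane proteins that form the strands of the tight junction, the belt that closes the gap between neighboring epithelial cells. Their extracellular loops meet across that gap, so the mix of claudins a cell makes sets which ions and how much water can pass between cells. Some open channels through the junction (claudin-2 and claudin-15 conduct cations), while others, such as claudin-1, claudin-3 and claudin-7, are mainly known for sealing it. In the colon the mix differs along the crypt axis and along the length of the organ, and a shift from sealing claudins to claudin-2 is a known feature of inflammatory bowel disease.

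RNA was sequenced from the colonic tissue of 3 Nedd4l fl/fl VillinCre mice (cKO in the labels) and 3 Nedd4l fl/fl littermates (WT in the labels), all 8 to 10 weeks old. All were given 2% DSS (dextran sulfate sodium, a polysaccharide that injures the colonic epithelium) in drinking water, and the tissue was taken on day 7. Both groups carry the floxed Nedd4l alleles; the first also carries Cre under the Villin promoter, which is active in intestinal epithelial cells (IECs), so that Nedd4l, a HECT family ubiquitin ligase, is deleted in IECs only. Whole tissue was used, and no mice without DSS are among the 6 libraries, so an effect of DSS itself cannot be read from them. The labels do not say whether each library is 1 mouse or a pool, and the p-values measure only the spread between these 6 libraries. Values are normalized counts, in which the reads of every gene in a library were scaled by the same factor, and the library totals ran from 14914367 to 17547270 in units of each library's smallest value.

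The targeted gene lay lower in each cKO library than in any WT library, to unequal extents. Nedd4l stood at 476, 942 and 566 normalized counts in cKO replicates 1, 2 and 3, while the WT libraries held 1241, 1271 and 1266. Its log2 difference was −0.99 (standard error 0.24, adjusted p = 0.225 from limma). Nedd4l passed the threshold in 2 of 13 alternatives, without cKO replicate 2 (−1.28, adjusted p = 0.0131 from limma) and with limma's array weights (−1.09, adjusted p = 0.0212), and its difference was −0.79 without cKO replicate 1. Over all genes tested, 0 passed an adjusted p of 0.05 in either direction (percent called 0), the smallest adjusted p being 0.111, while 2273 (14.0%) had an unadjusted p under 0.05. cKO replicate 1 stood apart from the other 5 libraries in its markers of other cells. Replicate 2 of that genotype had a mean correlation over genes of 0.977 with the WT libraries and of 0.966 with its own genotype. The latter mean includes replicate 1, whose own means were 0.963 with its genotype and 0.948 with WT. It therefore does not show that replicate 2 was closer to WT than to replicate 3. Values without cKO replicates 1 and 2 are given beside the results that rest on them.

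Levels were compared between claudins as normalized counts per kilobase of the gene length in the table. Cldn7, whose product also sits along the lateral membrane and binds EpCAM, had the highest mean over the 6 libraries, 5470 per kilobase, followed by Cldn3 at 4973. Cldn7 was above Cldn3 in 6 of 6 libraries, but the ranges overlapped (5083 to 6072 for Cldn7 and 4730 to 5503 for Cldn3). Together these 2 sealing claudins made up 71.6% to 77.6% of the 10-gene sum per kilobase in each library. Next came Cldn8 (mean 1250 per kilobase), the cation pore genes Cldn2 (814) and Cldn15 (615), then Cldn23 (319), Cldn4 (311) and Cldn12 (293), and far below them Cldn14 (37.9) and Cldn1 (6.27). The range of Cldn3 did not meet that of Cldn8, nor that of Cldn15 the range of Cldn23, nor that of Cldn12 the range of Cldn14, nor that of Cldn14 the range of Cldn1. Within the steps from Cldn8 to Cldn2, Cldn2 to Cldn15, Cldn23 to Cldn4 and Cldn4 to Cldn12 the ranges overlapped, and none of those orders held in all 6 libraries. Cldn8 was above Cldn2 in 5 of 6 libraries and Cldn2 above Cldn15 in 5 of 6. Cldn23 was above Cldn4 in only 3 of 6 libraries, and Cldn4 above Cldn12 in 3 of 6. From the highest mean to the lowest the family spanned 873-fold.

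**Figure D1:**
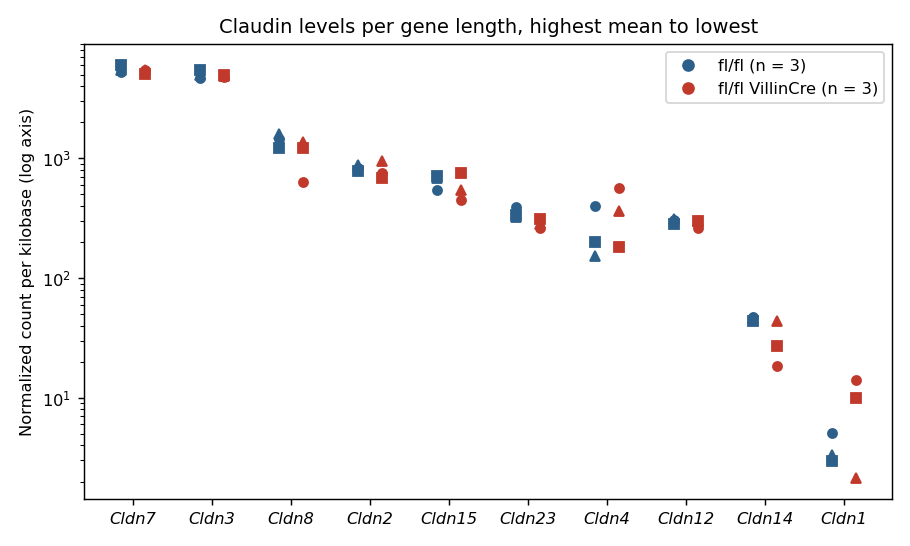
Normalized count per kilobase of gene length (vertical axis, log scale) for each claudin, ordered from the highest mean to the lowest; each point is 1 library, blue for WT (fl/fl) and red for cKO (fl/fl VillinCre) (n = 3 each), with circles, squares and triangles for replicates 1, 2 and 3. Cldn7 and Cldn3 lie together at about 4730 to 6072, while Cldn1 lies between 2.13 and 14.1.

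None of the 10 claudins passed an adjusted p of 0.05 in limma (range of adjusted p 0.320 to 0.794). Of the 10, 8 had a log2 difference below 0 (cKO minus WT) and 2, Cldn1 and Cldn4, above 0, with a median of −0.075 against 0.0013 over all genes tested. Among all 16246 genes tested, 8086 lay below 0 and 8160 above 0. For Cldn14 and Cldn23 all 3 cKO libraries lay below all 3 WT libraries, 2 of 10 members, where 10.9% of all genes tested lay apart in that direction and 21.4% in either. The same 2 genes had an unadjusted p under 0.05 with a lower value, against 7.08% of all genes tested. With 10 members these counts were not read as a property of the family. A missed threshold does not show that a gene was equal in the 2 genotypes, so the 95% interval of the difference is given for each gene.

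**Figure D2:**
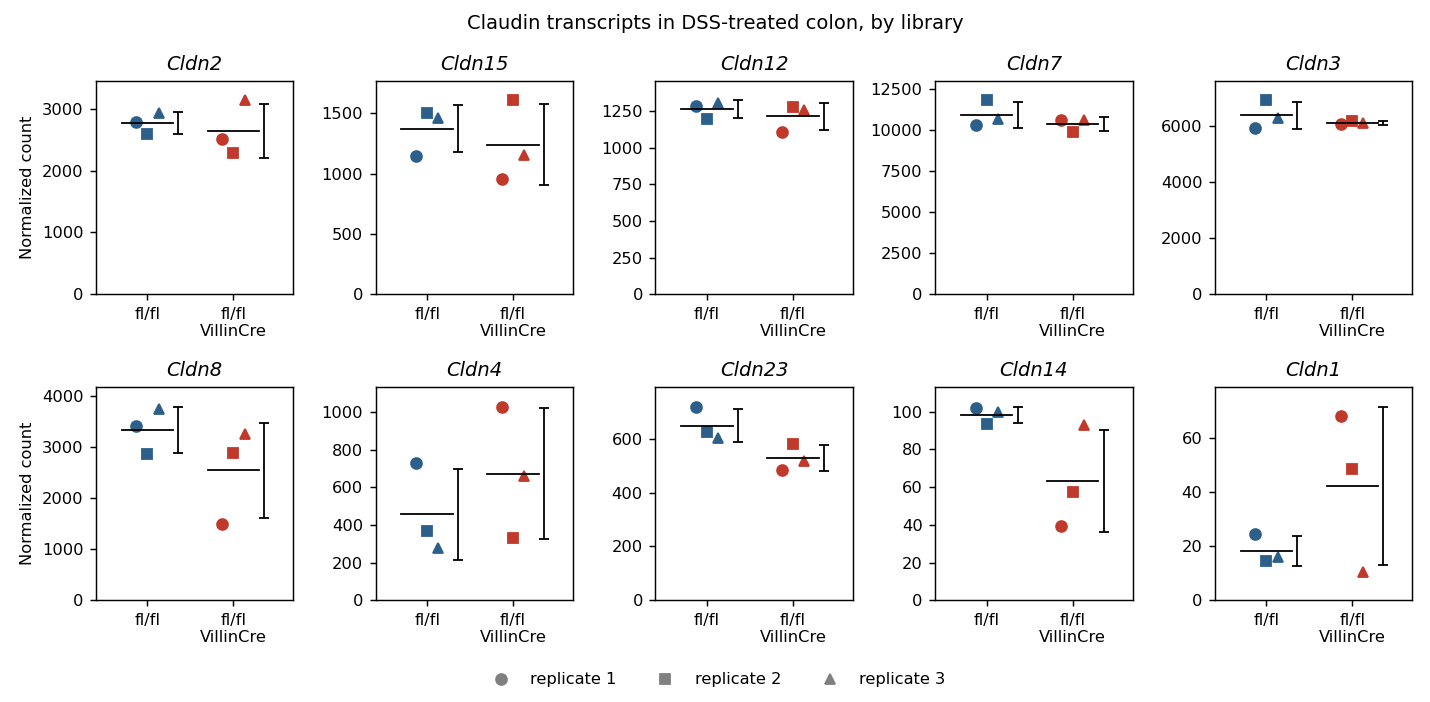
Normalized count (vertical axis, from 0) of each claudin in each library; points are libraries, the horizontal line is the mean of the genotype (n = 3) and the bar beside it is 1 SD to either side. Cldn14 and Cldn23 are the only 2 panels in which the genotypes do not overlap, and the circle of cKO (replicate 1) is the lowest point for Cldn8, Cldn14, Cldn15, Cldn12 and Cldn23 and the highest for Cldn1 and Cldn4.

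Cldn2 (ENSMUSG00000047230, chromosome X of GRCm38 from 139800828 to 139811386, plus strand) encodes the claudin that conducts sodium and water across leaky epithelia and is made mainly in crypts. It was listed at 2510, 2280 and 3137 normalized counts in cKO replicates 1, 2 and 3 and at 2784, 2586 and 2933 in WT replicates 1, 2 and 3. The genotypes overlapped, and both the lowest and the highest library were cKO. The cKO average was 2642 ± 443 (SD, n = 3) against 2768 ± 174 (SD, n = 3), a log2 difference of −0.078 with a 95% interval from −0.36 to 0.21 (adjusted p = 0.794 from limma). Without cKO replicate 2 the difference was 0.022. Cldn15 (ENSMUSG00000001739, chromosome 5 from 136966616 to 136975858, plus strand), a second cation channel that keeps sodium available in the intestinal lumen, stood at 954, 1609 and 1158 in the 3 cKO libraries and at 1151, 1506 and 1465 in the 3 WT libraries. Here too the former genotype held both extremes. Its log2 difference was −0.17 (95% interval −0.65 to 0.31, adjusted p = 0.717 from limma), and 0.0010 without cKO replicate 1. Per kilobase the ratio of Cldn2 to Cldn15 ran from 0.91 to 1.73 over the 6 libraries.

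Cldn12 (ENSMUSG00000046798, chromosome 5 from 5489537 to 5514958, minus strand), which has been linked to paracellular calcium passage and lacks the usual binding motif for PDZ domains at its end, varied little. It was at 1108, 1276 and 1260 normalized counts in cKO replicates 1, 2 and 3 and at 1288, 1196 and 1307 in the WT replicates, which overlapped. The log2 difference was −0.058 (95% interval −0.26 to 0.14, adjusted p = 0.783 from limma).

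The promoters of 4 members are shown side by side: the pore gene Cldn2, the neighbors Cldn3 and Cldn4, of which the first varied little between libraries and the second widely, and Cldn14, whose genotypes did not overlap. Each is the 250 bases before a start site in RefSeq on GRCm38.p6, 5′ to 3′ on the gene's strand. Cldn14 has 3 such start sites, of which the one at the gene's start in the table is shown; the others lie 79020 and 79270 bases away, neither with a TTTATG match and the nearer with 1 CAGGTG, 31 bases before it. The stretches are chrX:139800558-139800807 on the plus strand for Cldn2, chr5:134985964-134986213 on the plus strand for Cldn3, chr5:134946935-134947184 on the minus strand for Cldn4 and chr16:94008838-94009087 on the minus strand for Cldn14. Capitals mark matches, on either strand, to TATAAA (the TATA box), TTTATG (a form of the site of the intestinal factors CDX1 and CDX2), TGANTCA (AP-1), GGGCGG (GC box) and CAGGTG (an E-box form that Snail factors bind); no matches overlap each other, and the motifs were chosen with the sequences in view.
Cldn2: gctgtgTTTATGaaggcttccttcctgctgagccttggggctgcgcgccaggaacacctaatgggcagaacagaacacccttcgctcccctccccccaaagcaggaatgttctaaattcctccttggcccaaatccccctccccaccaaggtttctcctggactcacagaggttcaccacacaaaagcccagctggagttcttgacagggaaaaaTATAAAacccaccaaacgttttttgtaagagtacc
Cldn3: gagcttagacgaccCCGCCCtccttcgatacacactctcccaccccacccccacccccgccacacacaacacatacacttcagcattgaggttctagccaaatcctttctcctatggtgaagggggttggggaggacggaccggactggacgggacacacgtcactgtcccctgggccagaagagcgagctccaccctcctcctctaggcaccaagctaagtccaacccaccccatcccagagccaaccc
Cldn4: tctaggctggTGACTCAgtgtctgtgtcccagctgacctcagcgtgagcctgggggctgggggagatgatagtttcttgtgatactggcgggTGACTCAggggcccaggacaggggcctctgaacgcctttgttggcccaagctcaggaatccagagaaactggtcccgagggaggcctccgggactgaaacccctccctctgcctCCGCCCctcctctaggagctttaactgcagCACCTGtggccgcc
Cldn14: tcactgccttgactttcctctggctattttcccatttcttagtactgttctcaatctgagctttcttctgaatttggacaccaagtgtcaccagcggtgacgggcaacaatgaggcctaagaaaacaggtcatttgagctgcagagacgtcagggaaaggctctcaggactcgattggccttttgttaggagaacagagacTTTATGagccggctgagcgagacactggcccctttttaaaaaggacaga
The Cldn2 stretch holds 1 TATAAA, starting 35 bases before the start site, and 1 TTTATG, starting 244 bases before it. Cldn14 holds 1 TTTATG, which starts 49 bases before its start site. Cldn4 holds 2 TGANTCA matches (240 and 158 bases before the start), 1 GGGCGG (44 bases) and 1 CAGGTG (14 bases), while Cldn3 holds 1 GGGCGG, 236 bases before its start. These GGGCGG and CAGGTG matches lie on the other strand. Among 32851 stretches of the same length before RefSeq start sites, TATAAA occurred in 12.4%, TTTATG in 10.8%, TGANTCA in 6.75%, GGGCGG in 32.7% and CAGGTG in 17.2%. A match of letters is not a bound site, and no binding data were used. Of the members, 8 have an entry; Cldn8 and Cldn23 are named only.

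The 2 abundant sealing claudins varied least. Cldn7 (ENSMUSG00000018569, chromosome 11 from 69964779 to 69967885, plus strand) was listed at 10630, 9901 and 10615 normalized counts in cKO replicates 1, 2 and 3 and at 10302, 11828 and 10662 in the WT replicates. The libraries of the genotypes were interleaved, with a log2 difference of −0.073 (95% interval −0.27 to 0.12, adjusted p = 0.707 from limma). Cldn3 (ENSMUSG00000070473, chromosome 5 from 134986214 to 134987472, plus strand) is a gene of 1 exon and encodes a claudin that closes the junction to ions of both charges. Its normalized counts were 6068, 6209 and 6122 in the cKO libraries, a spread of 1.16% of the mean, and 5955, 6928 and 6285 in the WT libraries, around both sides of them. The log2 difference was −0.056 (95% interval −0.24 to 0.13, adjusted p = 0.772 from limma). An antisense transcript gene, Wbscr25, overlaps the Cldn3 exon on the minus strand. Without a stated strand setting its reads could not be told apart from those of Cldn3. Wbscr25 itself was not among the genes that passed the filter. The residual spread of Cldn3 was smaller than that of all but 9.95% of the genes tested, and for Cldn7 and Cldn12 the corresponding shares were 11.8% and 15.2%.

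Cldn4 lies 39280 bases from Cldn3 (ENSMUSG00000047501, chromosome 5 from 134945119 to 134946934, minus strand), is also a gene of 1 exon, and encodes a claudin that limits sodium passage and is known from surface cells. It did not share the steadiness of its neighbor. Normalized counts were 1029, 333 and 658 in cKO replicates 1, 2 and 3 and 732, 366 and 276 in WT replicates 1, 2 and 3, so that each genotype held high and low libraries. The cKO average was 673 ± 349 (SD, n = 3) against 458 ± 242 (SD, n = 3), and the highest library had 3.74 times the count of the lowest. The log2 difference was 0.54 with a 95% interval from −0.78 to 1.85 (adjusted p = 0.668 from limma). It was 0.16 without cKO replicate 1, 0.97 without replicate 2 of that genotype, 0.23 without WT replicate 3 and 0.94 without WT replicate 1. Of all genes tested, 94.5% had a smaller residual spread. In the log2 values Cldn4 ran against Cldn15 over the 6 libraries (Pearson r = −0.96, exact permutation p = 0.0153, adjusted p = 0.25 over 45 pairs of members; Spearman rho = −0.83, exact permutation p = 0.0583, adjusted p = 0.661). The relation did not pass the adjustment; without the 2 libraries farthest from the Cldn4 median, cKO replicate 1 and WT replicate 3, r was −0.99. With 3 libraries a genotype it was not computed within genotypes.

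Cldn8 (ENSMUSG00000050520, chromosome 16 from 88560828 to 88563183, minus strand) encodes a claudin of the distal colon and the collecting duct that restricts the backward leak of sodium. cKO replicate 1 had 1493 normalized counts, while replicates 2 and 3 had 2888 and 3256. The WT replicates 1, 2 and 3 had 3416, 2859 and 3756, so the genotypes overlapped and a single library lay low. The genotypes averaged 2546 ± 930 (SD, n = 3) and 3344 ± 453 (SD, n = 3), a log2 difference of −0.46 (95% interval −1.22 to 0.29, adjusted p = 0.525 from limma). Without cKO replicate 1 the log2 difference was −0.12. In its share of the 10-gene sum per kilobase, Cldn8 took 4.79% in that library and at least 8.01% in each of the other 5.

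The 2 claudins whose genotypes did not overlap differ in level. Cldn23 (ENSMUSG00000055976, chromosome 8 from 35824712 to 35826559, minus strand), a barrier-strengthening claudin of differentiated luminal cells, stood at 486, 582 and 519 normalized counts in cKO replicates 1, 2 and 3. It stood at 720, 626 and 602 in WT replicates 1, 2 and 3. The gap between the nearest libraries, 582 and 602, is small beside the spread within either genotype, 529 ± 48.5 (SD, n = 3) and 649 ± 62.3 (SD, n = 3). The log2 difference was −0.30 (standard error 0.11, 95% interval −0.55 to −0.037, adjusted p = 0.320 from limma), and the exact permutation test gave a two-sided p = 0.10, which 3 libraries against 3 cannot go below. Across leaving out each library in turn it stayed between −0.37 and −0.22, and with each library centred on 12 pan-epithelial markers it was −0.23 (adjusted p = 0.466 from limma). The 2 libraries with the lowest Cldn23, cKO replicates 1 and 3, also had the lowest sums of 8 surface colonocyte markers. These sums were 34023 and 32648 normalized counts, against 51754 to 74404 in the other 4. In cKO replicate 1, Slc26a3, Car4, Aqp8, Ceacam20 and Cyp2c55 lay below all WT libraries. There Car1 (6379), Slc9a3 (6628) and Guca2a (3575) lay within the WT range. Over the 6 libraries Cldn23 had r = 0.86 with the mean log2 value of this list and −0.90 with that of the leukocyte list. The part of these cells in the difference was not tested. Fewer cells of a type and less RNA per cell cannot be told apart in whole tissue.

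Cldn14 (ENSMUSG00000047109, chromosome 16 from 93919031 to 94008837, minus strand) encodes a claudin that blocks cations and is best known from the cochlea and the kidney. It was much lower in level, at 39.3, 57.5 and 92.8 normalized counts in cKO replicates 1, 2 and 3 and at 102, 93.6 and 99.9 in WT replicates 1, 2 and 3. The WT libraries lay close together, whereas the cKO libraries spread downward from a value just under them, 92.8 against 93.6. The averages were 63.2 ± 27.2 (SD, n = 3) and 98.4 ± 4.27 (SD, n = 3). The log2 difference was −0.72 (standard error 0.31, 95% interval −1.43 to −0.0018, adjusted p = 0.356 from limma; exact permutation test, two-sided p = 0.10). It was −0.42 without cKO replicate 1, −1.03 without replicate 3 of that genotype and −0.25 with limma's array weights, which give less weight to libraries far from the fit. Over the 6 libraries Cldn14 and Cldn8 varied in the same direction (r = 0.90, exact permutation p = 0.0167, adjusted p = 0.25 over 45 pairs; rho = 0.77, exact permutation p = 0.103, adjusted p = 0.661), and r was 0.61 without cKO replicate 1 and WT replicate 3. Cldn8 and Cldn12 gave r = 0.94 (exact permutation p = 0.00833, adjusted p = 0.25; rho = 0.94, exact permutation p = 0.0167, adjusted p = 0.661), and r = 0.62 without the same 2 libraries, so the strength of both relations rests on those libraries. None of the 45 pairs passed the adjustment.

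Cldn1 (ENSMUSG00000022512, chromosome 16 from 26356642 to 26371841, minus strand), the sealing claudin needed for the water barrier of skin, was the rarest member. Its normalized counts were 68.1, 48.6 and 10.3 in cKO replicates 1, 2 and 3 and 24.7, 14.4 and 16.0 in WT replicates 1, 2 and 3. Replicates 1 and 2 of cKO exceeded the other 4 libraries, and replicate 3 was the lowest of all 6. In units of each library's smallest value these are 10 to 71, so counting error adds to the spread. The log2 difference was 0.84, with a 95% interval from −0.72 to 2.40 (adjusted p = 0.580 from limma). Leaving out single cKO libraries moved it from 0.33 (without replicate 1) to 1.63 (without replicate 3), and it was −0.30 with array weights. Of all genes tested, 97.5% had a smaller residual spread.

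**Figure D3:**
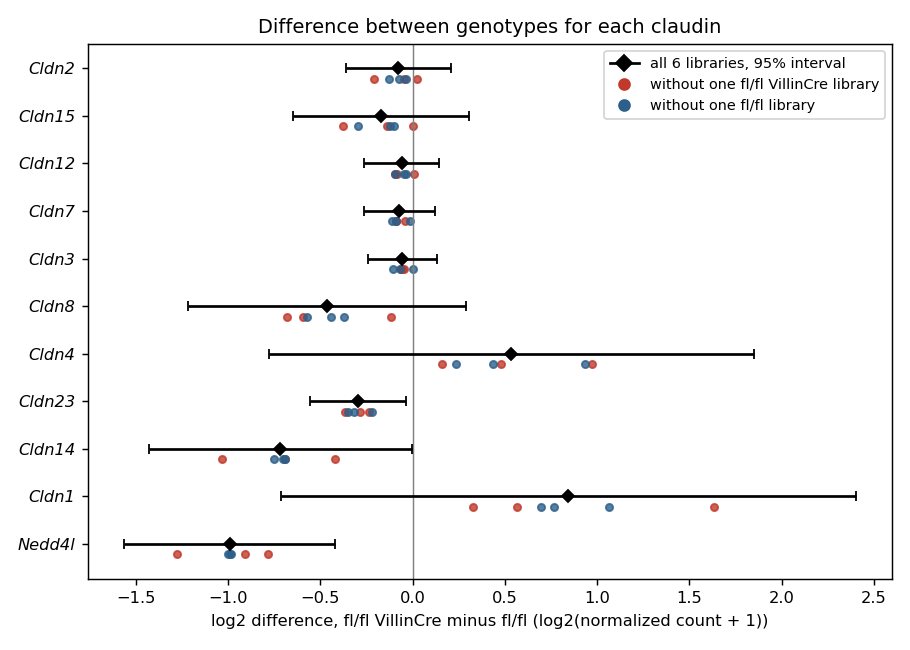
Log2 difference of each claudin and of Nedd4l, cKO minus WT, on the log2(normalized count + 1) scale (horizontal axis). Diamonds and bars are the fit over all 6 libraries with its 95% interval, and dots are the fits that leave out 1 library; the interval crosses 0 for 8 of 10 claudins, ends at −0.0018 for Cldn14 and at −0.037 for Cldn23.

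Other rows whose symbol begins with Cldn were 12 in number, of which 3 passed the filter. Cldn5, the claudin of endothelium, was at 43.1 ± 9.13 and 46.6 ± 13.4 normalized counts (SD, n = 3 each, cKO first), a log2 difference of −0.084 (adjusted p = 0.916 from limma). Cldn10, which has cation and anion channel forms, was at 17.2 ± 4.16 and 9.55 ± 6.76 (log2 difference 1.08, adjusted p = 0.467 from limma), and that difference was 0.33 without WT replicate 1, the library with 1.98. Cldnd1, a claudin domain gene, was at 825 ± 52.9 and 793 ± 45.4 (log2 difference 0.056, adjusted p = 0.799 from limma). The other 9 did not exceed 7.74 normalized counts in any library; Cldn13, which lies 29593 bases from Cldn4, and Cldn17, 53850 bases from Cldn8, are among them.

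Claudins are held in place by cytoplasmic scaffolds and share the junction with other membrane proteins, and 43 such genes were listed, of which 42 were tested. Of these, 22 had a log2 difference below 0 and 20 above 0 (median −0.012, against 0.0013 over all genes tested), and 0 passed an adjusted p of 0.05 in limma. At an unadjusted p under 0.05, 3 were lower, against 7.08% of all genes tested, and 2 higher, against 6.91%. The genotypes did not overlap for 7 genes on the lower side, against 10.9% of all genes, and for 2 on the higher side, against 10.5%. The ZO proteins bind the ends of claudins directly. Tjp1 (ZO-1) had a log2 difference of −0.029 and Tjp3 (ZO-3) of −0.039, with adjusted p of 0.928 and 0.880 from limma. Occludin, a membrane partner of the strands, had 0.017 (adjusted p = 0.959 from limma). The values of Tjp1, Tjp3 and Ocln turned sign in 4, 4 and 5 of 13 alternatives. The partners with the smallest p were Ybx3, a DNA-binding protein that docks at ZO-1 (3989 ± 59.3 against 5229 ± 417 normalized counts, SD, n = 3 each, log2 difference −0.39), the polarity proteins Pard3 (−0.31), Patj (−0.20) and Mpp5 (0.25), and Amotl2, an angiomotin (0.44). Their adjusted p ran from 0.192 to 0.342 from limma. With array weights, Ybx3 and Pard3 passed 0.05, where 262 genes passed higher and 369 lower among the 16246 tested.

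Sums of cell type markers differed between libraries, and their part in the claudin values was not tested. The 12 pan-epithelial markers, which include Epcam and Cdh1, summed to 239207 to 275078 normalized counts in cKO and to 256357 to 276983 in WT libraries, 8 of 12 with a log2 difference below 0 and none apart between genotypes. All 8 surface colonocyte markers had a difference below 0 (median −0.67), with sums of 32648 to 64475 and 51754 to 74404. Their mean log2 value lay −1.03, 0.023 and −1.55 from the WT average in cKO replicates 1, 2 and 3, so replicate 2 was near WT. Among all 16246 genes tested, 8086 lay below 0 and 8160 above 0. Genes of a list were measured in the same 6 libraries, so such counts of direction are not independent. Of the 7 crypt stem and cycling markers 7 were below 0, and their sums were 12920 to 14513 and 14492 to 15241. The distal segment markers Hoxa13, Hoxb13 and Hoxd13 summed to 3107 to 5644 and 4785 to 5518. The lowest of all 6 sums was that of cKO replicate 1, in which Cldn8 was lowest. Hoxb13 (2279) and Hoxd13 (17.3) were lowest there, but Hoxa13 (810) was lower in cKO replicate 3 (762). Cldn8 had r = 0.80 with the mean log2 value of this list, 0.90 with the crypt list and −0.95 with the mesothelium list. In cKO replicate 1 the squamous epithelium list (4 of 5 genes analysed, sums 37.6 to 249 against 23.7 to 36.9) was highest, at 249. There Krt13 was at 184 and Krt14 at 46.0, and Trp63, a defining marker of squamous cells, was at 1.92 in this library and at 0 in the other 5. Fibroblast markers (5 of 5 above 0, sums 11133 to 22688 against 6007 to 9775) and leukocyte markers (6 of 7 above 0, sums 8525 to 15141 against 5510 to 7638) were also highest there. Among the latter, S100a8 (2708) and S100a9 (2680) lay far above WT (at most 38.7 and 15.8), and Ptprc, Cd79a and Lyz2 also lay above all WT libraries. In contrast, Cd3e (49.8) lay below all WT libraries and Csf1r (721) within their range. Mesothelium (2 of 4 genes analysed, sums 38.7 to 155 against at most 45.0) and endothelium (3 of 4 above 0, sums 1950 to 3270 against 1319 to 1984) had their highest sums in that library too. Goblet cell sums (87311 to 443435 against 146169 to 303041), smooth muscle sums (4845 to 9072 against 4073 to 16589) and enteric glia and neuron sums (34.3 to 73.2 against 48.9 to 99.9) overlapped widely.

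**Figure D4:**
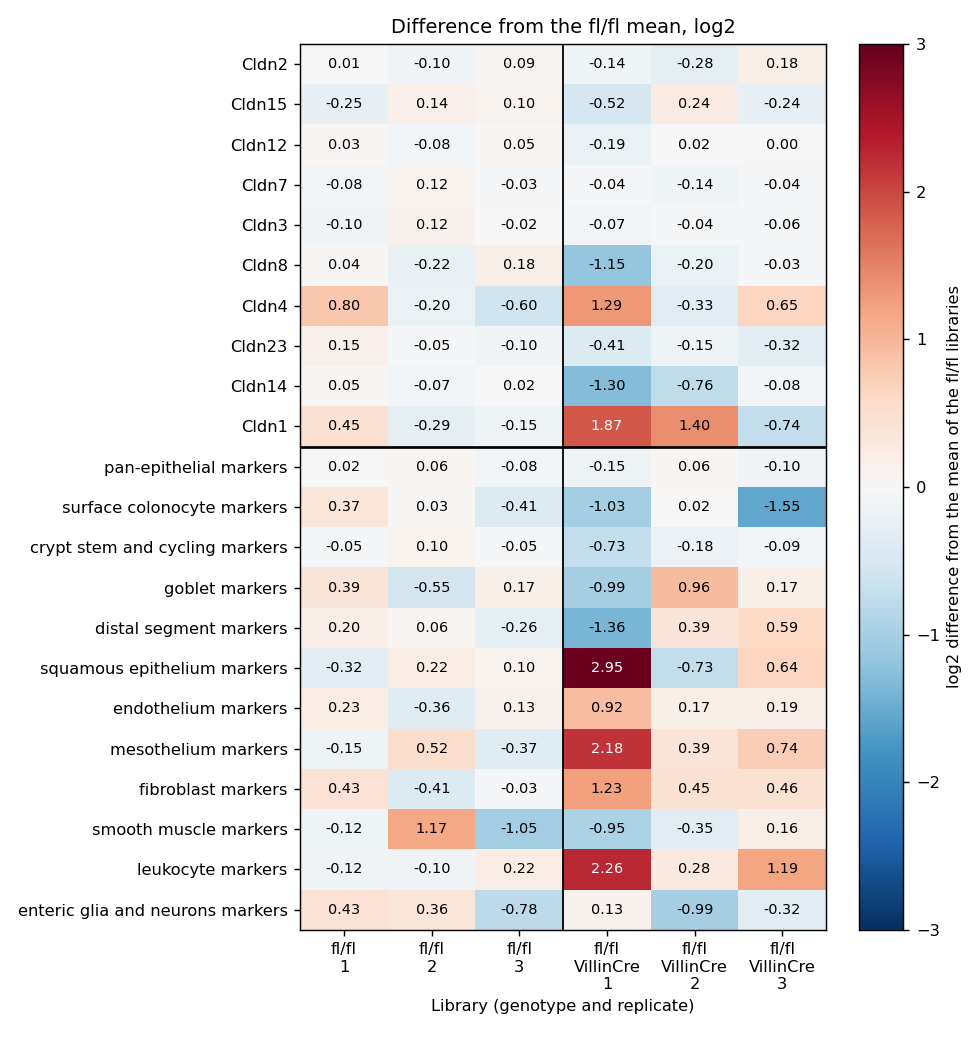
Log2 difference of each library (columns) from the average WT library for the 10 claudins (upper rows) and for the mean log2 value of the tested genes of each marker list (lower rows); red is higher, blue lower, with the value printed in each cell. cKO replicate 1 shows Cldn8 at −1.15, Cldn14 at −1.30, Cldn4 at 1.29 and Cldn1 at 1.87 beside squamous epithelium markers at 2.95 and leukocyte markers at 2.26. The squamous row rests on its 2 tested genes, Krt13 and Krt14. The leukocyte value includes S100a8 at 2708 and S100a9 at 2680 normalized counts, against at most 38.7 and 15.8 in WT, while Cd3e (49.8) lay below all WT libraries.

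When each library was centred on the mean log2 value of the pan-epithelial markers, 0 of 10 claudins passed an adjusted p of 0.05 in limma. The log2 differences were then −0.65 for Cldn14, −0.40 for Cldn8, −0.23 for Cldn23, −0.11 for Cldn15, 0.60 for Cldn4 and 0.91 for Cldn1. Those of Cldn2, Cldn7, Cldn3 and Cldn12 were −0.016, −0.010, 0.0060 and 0.0039, so Cldn3 and Cldn12 turned sign.

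For each member, the 2 protein-coding genes with the most similar pattern were sought by Pearson r of log2 values over the 6 libraries among 11880 genes with a mean of at least 50. These were Ttll5 and Zfp740 for Cldn2, Atp5d and Atp5b for Cldn15, Ankmy2 and Vps33b for Cldn12, Ccnf and Rptor for Cldn7, and, for Cldn3, Glrx5. For Cldn4 they were Cltc and Notch4, for Cldn8 Tmprss13 and Inafm1, for Cldn23 Sstr1 and Cd3eap, for Cldn14 Ccdc167 and Chchd3, and for Cldn1 Gramd1c and Rabif. The values of r lay between 0.975 and 0.998. With 6 libraries, 4 to 80 genes had an r over 0.95 for each member, and all points share the same libraries, so these names are a description only.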

How the data were processed

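Colonic tissue of 3 Nedd4l fl/fl VillinCre and 3 Nedd4l fl/fl mice was profiled, and groups were taken from the sample titles. The submitters' notes name HISAT2 2.0.5 and featureCounts 1.5.0-p3, and a human genome build; the coordinates in the table are those of GRCm38, since 97.2% of the 27164 identifiers found in GENCODE release M21 have identical ones. The authors deposited normalized counts, a signal in which each library's reads were scaled by a single factor; all values (100%, within 0.01) were whole multiples of a library's smallest value. Strand setting and treatment of shared reads are not given in the sources used here. The table also holds the authors' genotype means, fold changes and p-values, which were not used.

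The test used log2(normalized count + 1) of the 16246 genes whose mean was 10 or more, and limma 3.58.1 (lmFit and eBayes, trend and robust) was run under R 4.3.3 on the 6 libraries without a replicate term, with Benjamini-Hochberg adjustment over all genes and a threshold of 0.05. Fold changes of low genes are understated on this scale. The paper's text states no test for these data. The fit was tested on simulated data first. In 20 runs with 200 genes changed, it recovered 50.3% of log2 changes of 1 and 77.8% of changes of 2, with 3.87% of calls false. Smaller changes, such as those of the claudins, were not simulated. The simulated errors were independent and normal, with 1 spread per gene for both genotypes. In the data the spread could differ by genotype, as for Cldn14 (SD 27.2 in cKO and 4.27 in WT). The simulated rates therefore need not hold for these libraries. Exact permutation tests used scipy 1.17.1 and figures matplotlib 3.10.9 under Python 3.11.15. Depth, 14914367 to 17547270 per library, leaves little counting error for abundant claudins and more for Cldn1 and Cldn14. The members and lists were chosen with earlier results of these data known. Named are all members, Nedd4l, Tjp1, Tjp3 and Ocln, the 5 partners with the smallest p, the 2 genes most like each member in pattern, and other claudins that passed the filter; markers named singly were chosen after their values were seen. The rule also names 2 genes that are not reported here. Alternatives were pseudocounts of 0.5 and 5, no filter, quantile normalization, array weights, a replicate block, each library left out, and centring on epithelial markers. Count models were not run: the values were kept as deposited, in normalized form, although their whole multiples would allow reads to be recovered. Krt5, Upk3b, Wt1 and Tmem114, which are on the lists, were not analysed here.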

Additional observations from a re-analysis of the deposited data

How the results depend on the processing

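No claudin passed an adjusted p of 0.05 in limma in any of the 13 alternatives run (lowest 0.0910, for Cldn23 with array weights), and Cldn4, Cldn7, Cldn8, Cldn14 and Cldn23 kept their sign in all 13. Over all genes, calls numbered 0 higher and 0 lower with all libraries alike, 262 higher and 369 lower with array weights, and 7 and 23 with no filter on low values; leaving out 1 library gave 0 to 70 higher and 0 to 52 lower genes, the most without cKO replicate 2 (70 and 52), and 2 and 22 without replicate 1 of that genotype. Array weights called 2 of the 42 junction partners tested, beside those counts over all genes. Signs turned with array weights for Cldn1 (−0.30), Cldn2 (0.094), Tjp1 (0.096) and Tjp3 (0.072), with quantile normalization for Ocln (−0.0043), and with centring on epithelial markers for Cldn3 (0.0060), Cldn12 (0.0039), Tjp1 (0.033) and Tjp3 (0.023). Leaving out 1 library gave log2 differences from −0.21 to 0.022 for Cldn2, −0.11 to 0.0035 for Cldn3, −0.098 to 0.0064 for Cldn12, −0.38 to 0.0010 for Cldn15, −0.34 to 0.085 for Cldn5, −0.14 to 0.083 for Tjp1, −0.13 to 0.020 for Tjp3 and −0.048 to 0.13 for Ocln, so that these also turned sign. The cause was not tested. In a replicate block, 0 genes passed in either direction, and Cldn23 stood at −0.30 with it as without. Over all genes, samples with the same number did not deviate together (correlations −0.029, −0.090 and −0.056). Such correlations cannot show whether these samples were paired in a way that acts on some genes only. EdgeR and DESeq2 were listed as alternatives and not run. Among the 10 claudins depth limits Cldn1 most, whose lowest library held 10 counting steps; Cldn10 held 2 to 21.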
